A study of Homo sapiens with 4 samples.

Results

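The HOXA cluster is the row of homeobox genes on the short arm of chromosome 7, and H3K27Ac over it was compared between control and treated leukemia cells. The 9 genes described were chosen by name, as HOXA2, HOXA3, HOXA4, HOXA5, HOXA6, HOXA7, HOXA9, HOXA10 and HOXA13, out of 20037 protein-coding genes in the GRCh38.p14 annotation. The annotation holds 11 HOXA genes, and 2 of them were not analysed here. The rule that lists them uses gene names and no threshold on a measured value.

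MOLM13 is a human acute myeloid leukemia (AML) cell line that carries a fusion of MLL1 (KMT2A) with AF9 (MLLT3). ChIPmentation, in which the immunoprecipitated chromatin is cut and tagged by the Tn5 transposase, was carried out with an antibody to H3K27Ac, the acetylated lysine of histone H3 that marks active promoters and enhancers. There was 1 control library and 1 library from cells exposed for 16 h to 500 nM of SNDX-50469, an inhibitor of the Menin-MLL1 interaction, and the input libraries of both conditions were not analysed here. The control label gives no treatment, while the description of the treatment names a DMSO arm. All libraries share the line and the culture medium, and the comparison is between single libraries of 1 cell line. Differences between the lists therefore have no replicate check, and no p-value is given.

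HOX genes encode transcription factors that set position along the body axis, and they are arranged in the order in which they are used, from the anterior genes with low numbers to the posterior genes with high numbers. In blood, HOXA9 and its neighbours are active in stem and progenitor cells and are normally switched off as the cells mature. MLL1 fusion proteins, tethered to chromatin with Menin, keep HOXA9 and its partner MEIS1 active in leukemia, and the CXXC domain of MLL1 binds DNA with unmethylated CpG pairs.

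For this reason the sequences upstream of 3 genes at and around the acetylated part of the cluster are shown, with each CpG (CG, which reads the same on both strands) in capitals. They are the 250 bases before the outermost start in RefSeq (GRCh38.p14), written 5′ to 3′ on the minus strand, from which all 9 genes are transcribed. HOXA7 lies just outside the main block of control acetylation, HOXA9 at its border and HOXA13 at the far end.
HOXA7, chr7:27156676-27156925: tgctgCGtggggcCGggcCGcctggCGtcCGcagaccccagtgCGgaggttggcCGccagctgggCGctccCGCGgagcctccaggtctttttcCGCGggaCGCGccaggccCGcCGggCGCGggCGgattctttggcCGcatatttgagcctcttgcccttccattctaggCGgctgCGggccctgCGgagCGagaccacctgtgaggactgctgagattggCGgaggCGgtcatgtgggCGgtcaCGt
HOXA9, chr7:27165538-27165787: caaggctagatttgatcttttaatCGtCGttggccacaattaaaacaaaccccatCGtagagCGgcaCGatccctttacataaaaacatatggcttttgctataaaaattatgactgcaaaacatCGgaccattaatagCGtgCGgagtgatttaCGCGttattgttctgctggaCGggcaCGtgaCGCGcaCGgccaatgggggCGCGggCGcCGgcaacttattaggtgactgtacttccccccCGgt
HOXA13, chr7:27200092-27200341: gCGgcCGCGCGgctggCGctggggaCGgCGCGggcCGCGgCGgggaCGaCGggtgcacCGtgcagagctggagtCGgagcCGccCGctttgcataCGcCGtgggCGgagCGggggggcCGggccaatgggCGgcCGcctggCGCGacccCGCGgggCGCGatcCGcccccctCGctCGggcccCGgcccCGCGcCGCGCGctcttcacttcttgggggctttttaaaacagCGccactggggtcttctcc
The HOXA7 sequence holds 28 CpG pairs, a number reached by 15.9% of the 35116 promoters of the same length in the table, and neither peak list covered any base of it. The HOXA9 sequence holds 20, reached by 32.4%, and all 250 bases lay in peaks of both lists. The HOXA13 sequence holds 40, reached by 2.16%, and was covered in neither list. Among these 3 the covered sequence was the one with the fewest CpG pairs, but this order did not hold for the other outermost promoters. Those of HOXA2 (8 pairs), HOXA3 (11) and HOXA10 (19) held fewer than HOXA9 and were uncovered. Those of HOXA4 (26) and HOXA6 (27) held more and were also uncovered. A relation between CpG number and coverage was not tested on so few sequences, and methylation was not measured. Of all promoters in the table, 93.9% hold at least 1 CpG. Promoter sequences were found for 8 of the 9 genes, the exception being HOXA5. Of these 8, only HOXA9 had its outermost promoter covered, before and after treatment.

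The deposited lists hold broad peaks, with the fold over background of each peak averaged over its length and its −log10 p and −log10 q. The control list has 245875 peaks over 224.2 Mb and the SNDX-50469 list 54061 peaks over 29.4 Mb. The weakest peak had a −log10 p of 2.68 in control and 3.93 after treatment, and 81.5% of all control peaks lay below the second value. The files give no read totals, so depth is unknown, and peak values refer to the background of their own library. Positions were therefore compared between lists, and fold values only within a list. Where a shared limit on −log10 p or −log10 q was set, it too refers to each library's own background and need not make calling equal. The share of the control covered length that was also covered after treatment, called the kept share here, was 9.71% over all chromosomes and 6.65% on chromosome 7. As a check of the cell type, all 10 myeloid markers examined (SPI1, CEBPA, CEBPB, CD33, FLT3, MPO, LYZ, CSF1R, CSF3R and ITGAM) had a control peak within the gene or 1 kb on both sides, covering between 35.9% and 100% of it. Among 7 markers of other cell types, CD3E (41.1% covered) and GATA1 (3.33%) had a control peak. ALB, MYOD1, NEUROD1, KRT5 and EPCAM had none. After treatment 9 of the 10 myeloid markers and none of the 7 others had a peak. Over all protein-coding genes 75.1% had a control peak, and 52.8% of those had at least 1 bp also covered after treatment.

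In control cells, acetylation of the cluster lay almost wholly on the posterior side, from HOXA9 upward. Over the 99738 bp from HOXA2 to HOXA13 (chr7:27100354-27200091), 11 control peaks covered 27070 bp, or 27.1%. After SNDX-50469, 8 peaks covered 13772 bp, or 13.8%. Both lists shared 13250 bp, so the kept share of the cluster was 48.9%, beside 9.71% over all chromosomes. Of the treated length, 96.2% lay inside control peaks and 522 bp lay outside them. By number, 3 of the 11 control peaks shared at least 1 bp with a treated peak (27.3%, Wilson 95% interval 9.75% to 56.6%). This interval covers counting error only and takes neighbouring peaks as independent.

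**Figure D1:**
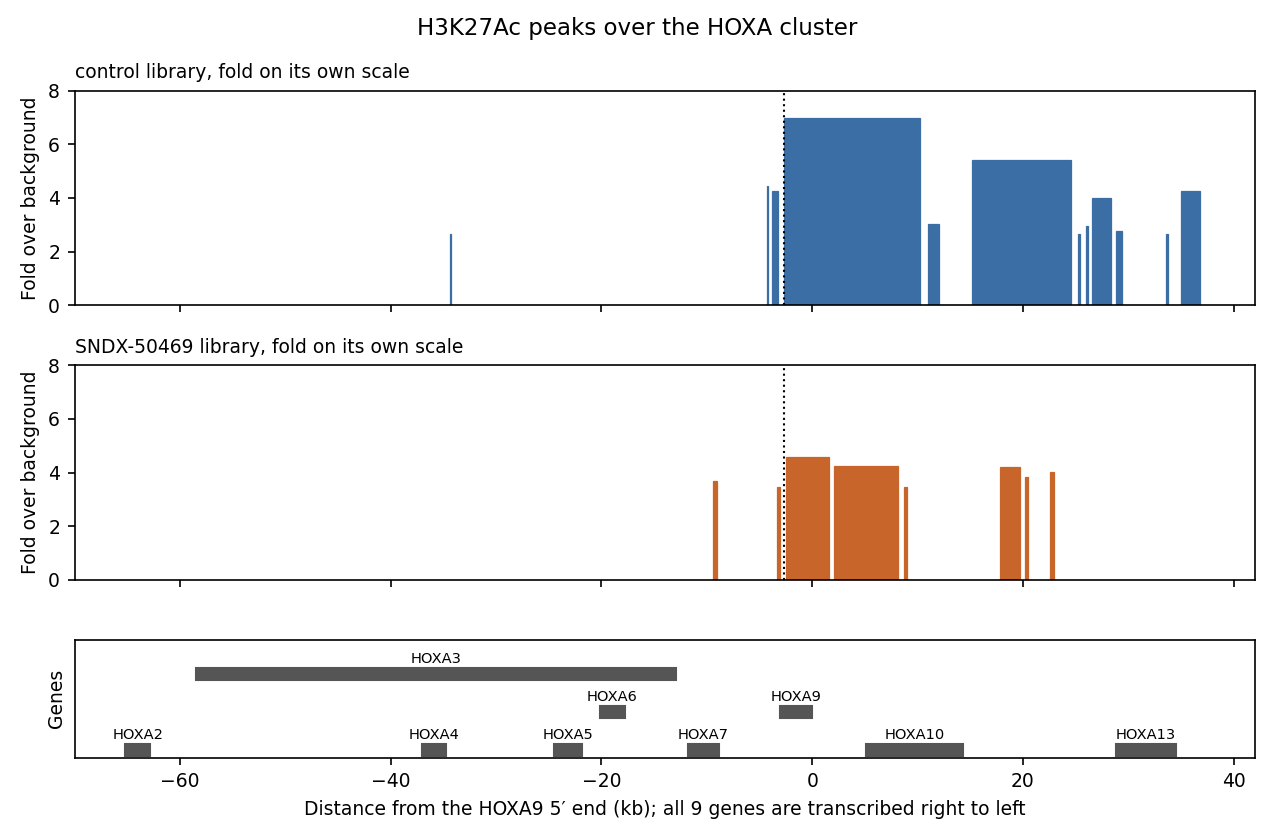
Broad H3K27Ac peaks over the HOXA cluster, with the fold over background of each peak on the vertical axis (each library on its own scale) and distance from the HOXA9 5′ end in kb on the horizontal axis, above the positions of the 9 genes; the dotted line is the control edge. The 12920-bp control peak over HOXA9 and HOXA10 reaches a fold of 6.99, and the treated peaks over the same stretch are 4159 and 6135 bp wide.

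The map of peaks shows a nearly empty anterior side in both libraries and a broken, shorter posterior block after treatment. A single position that best divides the cluster into an uncovered and a covered part was sought, as the split with the fewest positions on the wrong side. In control it fell at position 27162893, which is 455 bp above the 3′ end of HOXA9 and 6218 bp above the 5′ end of HOXA7, so that the edge lay inside HOXA9. Below this edge 1.19% of 62539 bp was covered, and above it 70.8% of 37199 bp, with 11.6% of the cluster on the wrong side. The split with the highest likelihood, a rule added after the data were seen, placed the control edge at 27161247, which is 1191 bp below the 3′ end of HOXA9.

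After SNDX-50469 the rule of fewest wrong positions placed no edge inside the cluster, because calling all of it uncovered left 13.8% of positions wrong and no other division left fewer. The likelihood rule placed the edge at 27162228, which is 210 bp below the 3′ end of HOXA9 and 981 bp from the control edge under the same rule. With this split, 0.548% of the lower part and 35.5% of the upper part were covered. The border between HOXA7 and HOXA9 was thus near the same place in both lists under this rule, while the covered share above it differed. The treated edge is the start of a 263-bp peak with a −log10 p of 3.93, the lowest of the treated list. At the control edge found by the first rule, the part above went from 26326 bp to 13170 bp, all of it within control peaks. The part below held 744 bp in control and 602 bp after treatment, of which 80 bp were shared.

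**Figure D2:**
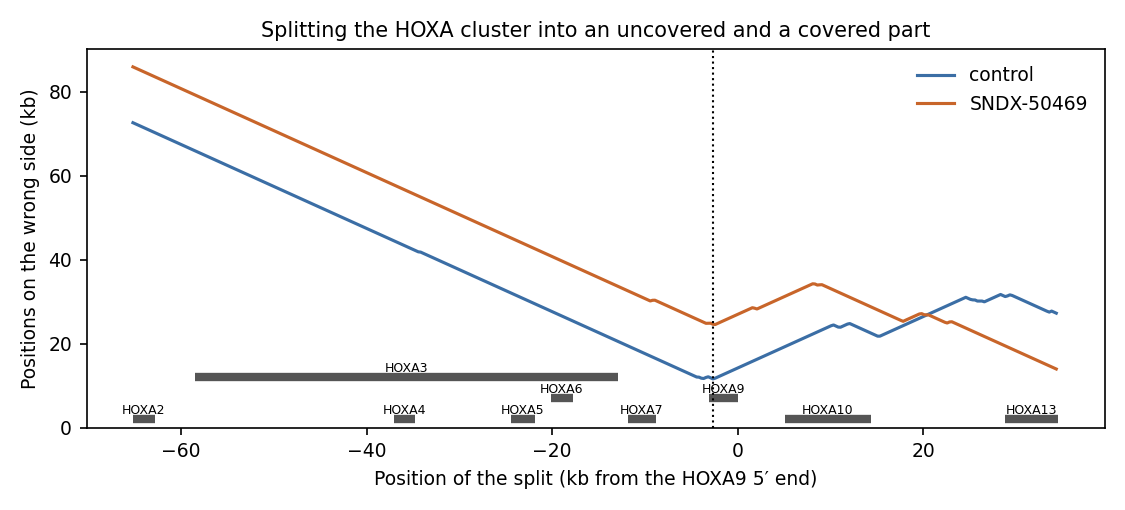
Number of positions on the wrong side (kb, vertical axis) for each split of the HOXA cluster into an uncovered lower and a covered upper part, against the position of the split in kb from the HOXA9 5′ end; lines are the control and SNDX-50469 libraries, grey bars the genes and the dotted line the control edge. The control curve is lowest at 11617 bp inside HOXA9, while the SNDX-50469 curve has only a local low there and ends lower, at 13772 bp, at the upper end of the cluster.

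Both curves fall across the anterior genes and turn at HOXA9, and the treated curve rises across the peaks over HOXA9 and the lower part of HOXA10 before it sinks, with small rises at the remaining peaks, to the upper end of the cluster. Taking the 9 genes with 1 kb on both sides, 5 had a control peak, as did 75.1% of all protein-coding genes, 3 had a treated peak and 2 had at least 1 bp covered in both lists. A kept position was found in 2 of 5 genes with a control peak, a share of the same order as the 52.8% found over all 15042 protein-coding genes that had control coverage. All 5 had less covered length after treatment, as did 97.9% of those genes, so that this count lies at the background. The median kept share of the 5 was 0%, beside 1.65% over the 15042 genes, whose mean was 11.3%. The members divided sharply around these medians.

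**Figure D3:**
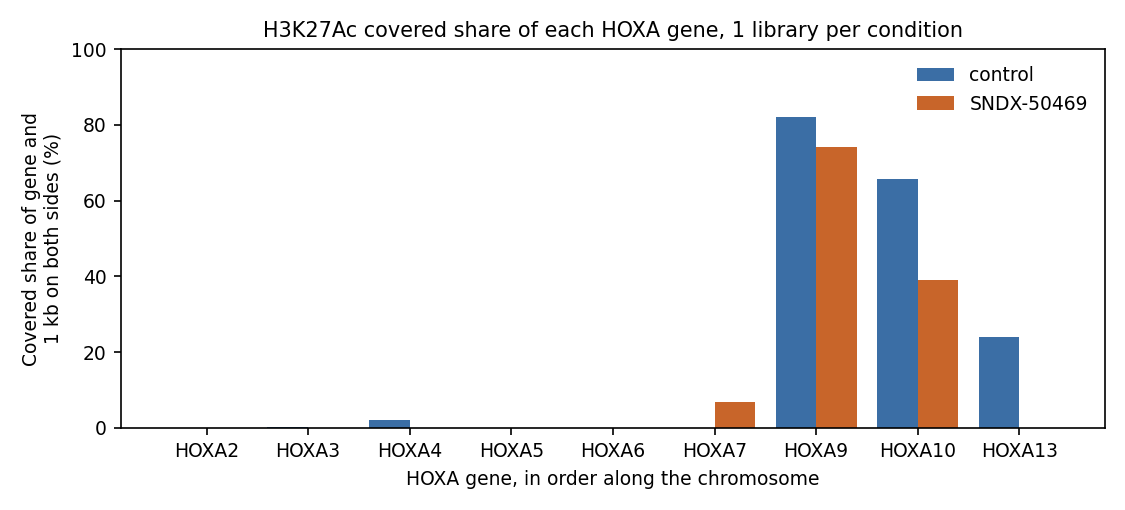
Share of each HOXA gene with 1 kb on both sides that was covered by H3K27Ac peaks (%, vertical axis), for the 9 genes in order along the chromosome, with 1 bar for each library. HOXA9 went from 82.1% to 74.3% and HOXA10 from 65.6% to 39.0%, while HOXA13 went from 24.1% to 0%.

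The bars of covered share by gene are high only for HOXA9 and HOXA10. Among the anterior genes, HOXA2 (chr7:27100354-27102683), which patterns the hindbrain and the second pharyngeal arch, had no peak in either list. HOXA3 (chr7:27107010-27152583), needed for the thymus and parathyroid, had 1 control peak of 92 bp, which is 0.193% of its window, and none after treatment. HOXA4 (chr7:27128525-27130757) lies inside the annotated span of HOXA3, and its only control peak was that same one (chr7:27131204-27131295), upstream of its 5′ end. This peak had a fold of 2.66, the lowest value of the control list, so the counts for these 2 genes rest on 1 of the weakest peaks. HOXA5 (chr7:27141052-27143681), known for its part in lung development, and HOXA6 (chr7:27145396-27147774) had no peak in either list. In all 3 of the 9 genes had none, beside 23.1% of all protein-coding genes.

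HOXA7 (chr7:27153716-27156675), another HOXA gene often active in leukemia with MLL1 fusions, had no control peak within its window. After SNDX-50469 a peak of 339 bp with a fold of 3.68 was listed near its 5′ end (chr7:27156147-27156485), covering 6.83% of the window. A treated peak without a control peak was found in 1 of the 9 genes and in 1.81% of protein-coding genes. The HOXA7 peak was of middling rank in its own list, where 47.5% of peaks had at least its −log10 p. Between HOXA7 and HOXA9 lie 5762 bp, of which 652 bp were covered in control, 210 bp after treatment and 80 bp in both. The control peaks there were short, at 110 and 542 bp, but with folds of 4.43 and 4.27 they were among the strongest 5.58% and 6.01% of the control list.

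HOXA9 (chr7:27162438-27165537), the homeobox factor on which leukemia cells with MLL1 fusions depend, was the most completely covered of the 9. Within its window of 5100 bp, 4187 bp (82.1%) were covered in control, 3791 bp (74.3%) after treatment and 3608 bp in both, a kept share of 86.2%. The 2001 bp around its 5′ end lay wholly in peaks of both lists, which include the upstream sequence printed above. Of protein-coding genes with a control peak, 100, or 0.665%, kept at least as large a share. These genes were not matched to HOXA9 for strength of control peaks, a comparison made below for the wide peak. A further 183 bp at HOXA9 were covered only after treatment, in part of a peak of 263 bp at its 3′ side that began below the wide control peak over HOXA9 and HOXA10. That peak has the lowest −log10 p of the treated list. At a −log10 q of at least 2 all 3528 treated bp at HOXA9 lay in control peaks. Thus, unlike most genes, HOXA9 differed little in covered positions between the lists.

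HOXA10 (chr7:27170605-27179861), a neighbour with roles in blood progenitors and the uterus, had 7387 of 11257 bp in control peaks (65.6%) and 4390 bp in treated peaks (39.0%). All treated positions lay in control peaks, and the kept share was 59.4%. This share or a larger one was found in 448, or 2.98%, of the genes with a control peak, again without matching for peak strength. Coverage lay on the side of HOXA9, and around the outermost 5′ end of HOXA10 only 135 of 2001 bp were covered in control and none after treatment. An inner HOXA10 promoter of the RefSeq table (chr7:27174321-27174570, 24 CpG pairs) had all 250 bases covered in control and 171 after treatment. HOXA10 was thus covered upstream of this inner start and not in the 250 bases upstream of its outermost one.

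**Figure D4:**
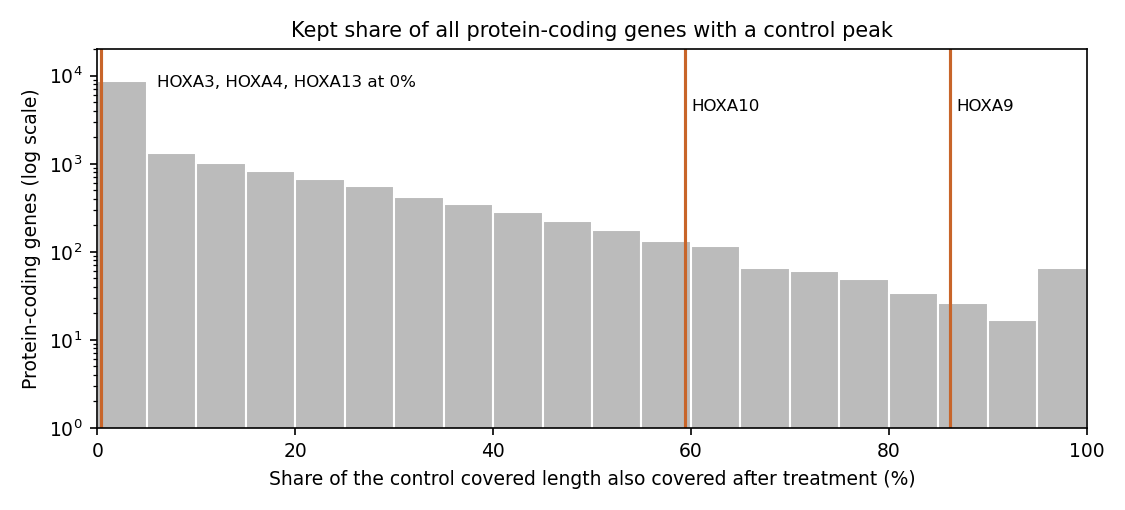
Number of protein-coding genes (vertical axis, log scale) by kept share, the percent of the control covered length that was also covered after SNDX-50469, for the 15042 genes with a control peak; vertical lines mark the HOXA genes with a control peak. HOXA9 (86.2%) and HOXA10 (59.4%) lie in the right-hand tail, and HOXA3, HOXA4 and HOXA13 lie at 0%.

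The distribution of kept shares places 2 of the members in the tail and 3 at zero. HOXA13 (chr7:27194364-27200091), the most posterior gene, which patterns the limbs and the genital tract, had 4 control peaks within its window over 1864 of 7728 bp (24.1%). The strongest had a fold of 4.25, and 861 bp lay within the 2001 bp around the 5′ end. After treatment none of the window was covered. Of these lost positions, 1092 bp lay in control peaks at or above the lowest −log10 p of the treated list. All 1092 bp were in the 1 kb on both sides and not in the gene, in part in the 1880-bp peak over HOTTIP. Within HOXA13 itself 772 bp were covered in control, in peaks with a −log10 p of 2.85 and 2.68, both under that value.

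Seen along the chromosome, the stretch from HOXA9 to HOXA10 held 79.9% of all kept positions of the cluster. There, control peaks took up 13964 of 17424 bp (80.1%) and treated peaks 10637 bp (61.0%), with a kept share of 75.8%. The 5067 bp between both genes were covered entirely in control and to 92.1% after treatment. In contrast, the 14502 bp between HOXA10 and HOXA13, whose genes were not analysed here, went from 79.9% to 17.8% covered, with a kept share of 22.3%. This stretch accounted for 9004 bp, or 65.2%, of the control positions that were lost from the cluster, and HOXA9 to HOXA10 for 24.5%. Hence the positions lost were mostly on the HOXA13 side and the positions kept mostly around HOXA9 and HOXA10.

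Most of the control signal came from a pair of wide peaks. The first (chr7:27162893-27175812) was 12920 bp wide, ran from within HOXA9 into HOXA10, and had a fold of 6.99 and a −log10 q of 9.41. It stood at rank 2286 of the control list by −log10 p and was among the widest 0.546%. After treatment 81.9% of it was covered. Among the 1000 control peaks next to it in rank, 500 stronger and 500 weaker, the median kept share was 37.8%, and 931 kept less than it did. Those neighbours had a median width of 4698 bp, so they were narrower on the whole. The second (chr7:27180727-27190106) was 9380 bp wide with a fold of 5.41, at rank 6545, and 27.6% of it was covered after treatment. Its 1000 neighbours in rank had a median kept share of 12.4%, and 706 kept less. Both wide peaks thus kept more than the median of control peaks of like rank.

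After SNDX-50469 the first wide peak was replaced by a peak of 4159 bp over HOXA9 (chr7:27163010-27167168, fold 4.56), a peak of 6135 bp toward HOXA10 (chr7:27167570-27173704, fold 4.23) and a peak of 290 bp (chr7:27174202-27174491, fold 3.47). Within the treated list the 6135-bp peak was among the widest 0.437% and the 4159-bp peak among the widest 1.13%. By −log10 p they were less extreme, with 11.7% and 5.87% of treated peaks at least as strong. They were thus wide and only moderately enriched. Over the second wide peak, 3 treated peaks of 1930, 218 and 438 bp remained, all of them inside it.

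At the weak end, the lists had unequal limits of calling. Of the 11 control peaks in the cluster, 6 had a −log10 p under the lowest value of the treated list, and the part this difference played in the loss was not tested. With the control list held to that same value, 5 control peaks were left and the kept share of the cluster was 53.6%, beside 15.5% over all chromosomes. HOXA9 then kept 86.2%, HOXA10 69.2% and HOXA13 0%, and HOXA3 and HOXA4 had no control peak. No treated peak of the cluster reached a −log10 q of 5, so at that limit the cluster kept 0%, beside 6.47% over all chromosomes, while HOXA9 and HOXA10 had 3645 and 6343 bp covered in control.

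Non-coding genes of the cluster lie among the same peaks. HOXA10-AS, a long RNA antisense to HOXA10 (chr7:27168899-27171915), and MIR196B (chr7:27169480-27169563), which encodes a microRNA that targets HOX transcripts, were covered over their full 3017 and 84 bp in both lists. The products of MIR196B are shown from RefSeq (GRCh38.p14, minus strand), because its locus was covered entirely before and after treatment, with the seed (bases 2 to 8) in capitals.
hsa-miR-196b-5p, chr7:27169528-27169549: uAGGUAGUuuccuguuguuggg
hsa-miR-196b-3p, chr7:27169493-27169514: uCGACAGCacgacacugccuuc
HOTTIP, a long RNA made at the posterior end of the cluster (chr7:27200421-27207259), had 1880 of 6839 bp covered in control and none after treatment. Within the anterior side, HOXA-AS2 and HOXA-AS3 had no peak in either list. These genes lie within the peaks and gaps already described, so their values restate the same positions.

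The surroundings of the cluster were nearly bare. In the 100 kb below HOXA2 neither list had a peak. In the 100 kb above HOXA13, 4 control peaks covered 2615 bp (2.62%), the largest of them over HOTTIP, and none of it was covered after treatment. EVX1 (chr7:27242802-27247830), a homeobox gene and the only protein-coding gene in these flanks apart from HOXA genes, had no peak. With peaks less than 10 kb apart joined, the control block ran over 41.1 kb from 27161247 to 27202371, and the treated block over 32.4 kb from 27156147 to 27188499. The treated block thus ended lower, before HOXA13, and began at the 339-bp HOXA7 peak, joined across 5.74 kb without a peak. Peaks covered 70.2% of the control block and 42.6% of the treated block.

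The other HOX clusters were examined in the same way, with each cluster taken from its first to its last gene. HOXB had 0.318% of its span covered in control and 0.0699% after treatment, HOXC 0.675% and 0.0836%, and HOXD 0% and 0.265%. No position was covered in both lists in any of the 3. Of their genes, 1 of 10 in HOXB, 3 of 9 in HOXC and 0 of 9 in HOXD had a control peak, beside 75.1% of all protein-coding genes.

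**Figure D5:**
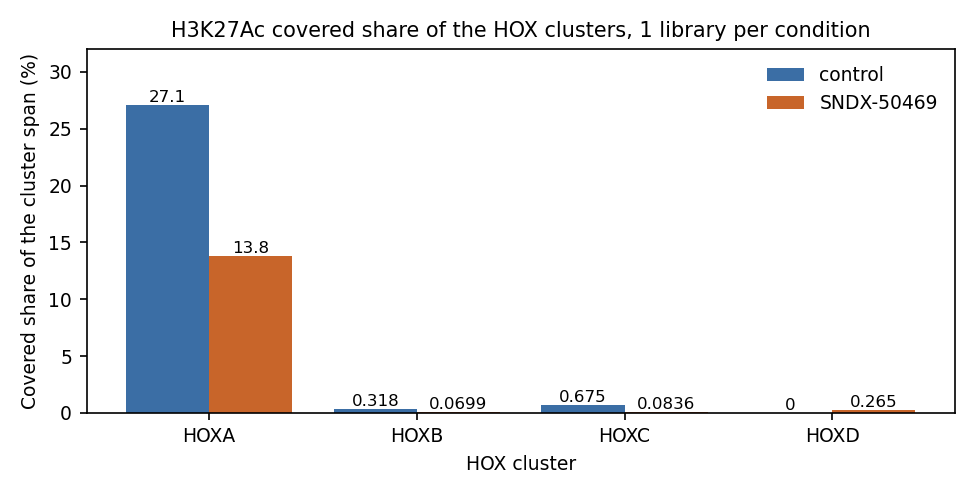
Share of the span of each HOX cluster covered by H3K27Ac peaks (%, vertical axis) in the control and SNDX-50469 libraries, 1 bar for each. HOXA had 27.1% and 13.8% covered, and HOXB, HOXC and HOXD were under 1% in both.

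The bars for the HOX clusters show that broad acetylation of a HOX cluster was found at HOXA alone among the 4 in this line. Finally, 17 genes for proteins that act on or with HOXA genes were examined, comprising Menin, MLL1 and its complex, elongation factors and the MEIS and PBX partners. All 17 had a control peak and less covered length after treatment, where 97.9% of genes with a control peak had less. In 13 of them at least 1 bp was covered in both lists, where 52.8% of genes with control coverage had such a position. Their median kept share was 12.3%, beside 1.65% over those genes. RBBP5, a subunit of the MLL1 complex, kept the largest share at 52.8%. AFF4, CDK9, MEN1 and MLLT3 kept 0%. MEIS1, the partner of HOXA9, kept 3.23% of 94054 bp of control coverage, and PBX3 kept 4.22% of 111877 bp. PBX2 also lost coverage but kept a larger share, 37.9% of 5472 bp, while KMT2A kept 9.06% of 6436 bp. HOXA9 kept 86.2% of 4187 bp, a larger share than each of these.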

How the data were processed

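H3K27Ac ChIPmentation was measured in 1 control and 1 SNDX-50469-treated MOLM13 library. The authors deposited 1 list of broad peaks for each, holding for every peak a ratio (fold over background), a −log10 p-value, a −log10 q-value and a score, which holds 10 times the −log10 q cut to a whole number and was left aside. The submitters' processing notes name Trim Galore 0.6.5, Bowtie2 2.3.4.2, Picard 2.9.0, MACS2 2.1.2 and GRCh38, whereas the supplementary methods name TopHat2 and hg38. Calling options and the use of input are not given in the sources used here.

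Covered positions were counted with Python 3.11.15, numpy 2.4.6, pandas 2.3.3 and scipy 1.17.1, and the scripts were tested on simulated intervals. Genes were the protein-coding genes of GRCh38.p14, with 1 kb on both sides. Gene strand came from the RefSeq promoters. Where these gave none, it came by symbol from GENCODE on an earlier build, whose coordinates were not used. An overlap was at least 1 bp. The likelihood rule for the edge asked for at least 10 kb on each side of the split. Every listed HOXA gene, every protein-coding gene within 100 kb, the other HOX clusters, the extremes of the regulator list and every peak in the cluster were to be named. KMT2A, MEIS1, PBX2, PBX3 and the non-coding genes were named after their values were seen. The members and lists were chosen with earlier results of these data known. From the regulator list and the marker list 1 gene each is not reported here. The files give no read totals, and with 1 library a condition no test was made. Alternatives were another limit on −log10 q, a common limit on −log10 p, a control list trimmed to the treated length, joined peaks, other windows and other rules for the edge.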

Additional observations from a re-analysis of the deposited data

How the results depend on the processing

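Of 54 alternative values 37 stayed within a set tolerance of the value reported (its 95% binomial interval for a share, 1.5 times for a count, 1 kb for an edge) and 17 did not. For shares the interval took the number of peaks, genes or kb as its sample size, so it is a set rule and does not measure spread between libraries. This tolerance for shares is wide, and it also took in a kept share of the cluster of 27.3% as the share of control peaks with 1 bp shared. It likewise took in a median kept share of HOXA genes of 27.1% over the gene body alone against 0%. The kept share of the cluster was 48.9% with all peaks, 0% at a −log10 q of at least 5, 81.9% with the control list trimmed to the treated length (38.9% over all chromosomes), and 9.09% as the share of control peaks of which at least 50% was covered. At a −log10 q of at least 5 the treated cluster had 0% covered and 0 genes with a kept position, and the treated list held 938 peaks, none in the cluster, so no treated edge was given. Trimming left 1 control peak in the cluster and 13% covered. The median kept share of HOXA genes was 64.6% at a −log10 q of at least 2, 69.2% with the common −log10 p limit and 83.8% with trimming, since weakly covered genes then had no control peak. Around the 5′ end alone 1 gene kept a position. The control edge was 27162893 with all peaks, 27161247 with peaks within 1 kb joined, 27299577 with 100 kb added on both sides and 27115778 as the middle of the longest stretch without a control peak. The value 27299577 is the start of a weak 258-bp peak in the upper flank, so with flanks added the rule placed no control edge inside the cluster. Trimmed, the control edge fell at the upper end of the cluster, 27200092. The treated edge was 27300092 with 100 kb added, which is the upper end of that span. The following 2 rules were chosen after seeing the data: the likelihood split, with edges at 27161247 and 27162228, and the span of all annotated HOXA genes, with a kept share of 48.9%. The lower flank had no control peak and gave no kept share, and the upper flank gave none at a −log10 q of at least 5 or with trimming. No paired analysis was possible because there was a single library in each condition. Depth is unknown, so a stretch without a peak was not called at the depth of that library and is not shown to lack acetylation.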

Other observations

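Beyond the cluster the peaks stood far apart. In control, the stretch without a peak that ended just upstream of HOXA4, and held HOXA4 itself, was 265.9 kb long, and 29951 bp without a peak separated the HOXA4 peak from the block at HOXA9. From within HOTTIP upward 94.7 kb were bare, followed by 3 weak control peaks of 226, 251 and 258 bp with folds of 2.66, 2.88 and 2.92. After SNDX-50469 the bare stretches on either side of the block were 582.1 and 148.3 kb long, and inside the block the longest bare stretch, of 8.85 kb, lay between the last peak at HOXA10 and the next peak toward HOXA13.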
